A study of Homo sapiens with 6 samples.

Results

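ID1, ID3 and SMAD7, transcripts known as targets of bone morphogenetic protein (BMP) signalling, were examined together with INHBA, which encodes the subunit of activin A, in Huh7 cells given GABA. These 4 genes were chosen by name from the 5187 genes in the files, and all 4 were found there. They were chosen with their GABA against control values known, so those values are given as a description, with no test. Huh7 is an established human hepatocellular carcinoma line. One group is untreated Huh7 cultures (control, n = 3 libraries). The other is Huh7 cultures treated with GABA, gamma-aminobutyric acid, for 24 h (n = 3 libraries). The same time of 24 h is recorded for the control libraries. Both groups were grown in the same serum-containing medium, and the dose of GABA is not given in the labels. The labels name the libraries as biological replicates 1 to 3. They do not say whether these were separate cultures, so the p-values measure the spread between these libraries.

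BMPs and activins are secreted dimers of the TGF-beta superfamily. BMPs bind receptors that phosphorylate SMAD1 and SMAD5, whereas activins and TGF-betas act mainly through SMAD2 and SMAD3, and both branches share SMAD4. The ID genes are immediate targets of the BMP branch, and in liver the same branch drives hepcidin in the control of iron. SMAD7 is induced by both branches and blocks the receptors in return.

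The files hold a preselected set of genes. The smallest absolute log2 fold change among the tested genes was 0.12, and the order of the genes in the files had a Spearman correlation of 0.93 with the p-value of this comparison, across genes, which are not independent replicates. Nearly every listed gene is therefore called, and a gene that is absent cannot be read as unchanged. Counts summed to between 7702666 and 8392945 a library over the listed genes, which is not the full depth. Mitochondrially encoded transcripts held 9.11% of the counts in control replicate 3, against 6.66% to 7.74% in the other 5 libraries. With TMM factors computed without these transcripts, the log2 fold changes were -0.79 for ID1, -1.02 for ID3, -0.54 for SMAD7 and 1.37 for INHBA. Without control replicate 3 they were -0.72, -1.07, -0.60 and 1.40. Of 21 hepatocyte and hepatoma markers 1 was listed, FOXA1, at 2.64 CPM in control and 1.04 in GABA libraries. ALB and AFP were among the 20 not listed here, so the identity of the line could not be checked. None of the 8 endothelial and 9 immune cell markers was listed. Of 10 fibroblast and stellate cell markers, COL3A1 and THY1 rose and PDGFRB fell, at control levels of 20.0, 71.0 and 40.3 CPM. In RNA from whole cultures, fewer cells that express a gene and less RNA per cell cannot be told apart.

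The promoters of the 4 genes are shown because ID1 and ID3 differed between the groups in one direction and INHBA in the other. Each sequence holds the 250 bases before the start site in RefSeq (build GRCh38.p14), written 5′ to 3′ on the strand of the gene. The windows are chr20:31605039-31605288 on the plus strand for ID1, chr1:23559502-23559751 on the minus strand for ID3, chr18:48950966-48951215 on the minus strand for the first of 3 listed SMAD7 starts, and chr7:41703091-41703340 on the minus strand for INHBA. The ID3, SMAD7 and INHBA windows lie inside the GENCODE spans of these genes, whose upstream ends are at 23559794, 48952052 and 41705834. GENCODE thus places a start further upstream for each of them. The last few bases of the ID1 window also lie inside the span of that gene, which begins at 31605283. Windows at the GENCODE starts were not examined. Capitals mark the SMAD box (CAGAC), the TATA box (TATAAA) and the CCAAT box (CCAAT), found on either strand.
ID1: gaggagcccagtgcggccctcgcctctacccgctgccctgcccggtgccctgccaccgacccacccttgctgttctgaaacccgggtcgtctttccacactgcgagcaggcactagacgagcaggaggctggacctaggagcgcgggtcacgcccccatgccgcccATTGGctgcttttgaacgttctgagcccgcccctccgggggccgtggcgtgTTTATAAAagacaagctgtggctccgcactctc
ID3: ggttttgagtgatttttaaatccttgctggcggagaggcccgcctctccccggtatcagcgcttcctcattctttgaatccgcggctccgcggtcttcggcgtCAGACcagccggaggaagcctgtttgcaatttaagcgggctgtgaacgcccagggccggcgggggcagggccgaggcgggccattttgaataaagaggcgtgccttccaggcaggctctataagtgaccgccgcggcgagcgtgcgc
SMAD7: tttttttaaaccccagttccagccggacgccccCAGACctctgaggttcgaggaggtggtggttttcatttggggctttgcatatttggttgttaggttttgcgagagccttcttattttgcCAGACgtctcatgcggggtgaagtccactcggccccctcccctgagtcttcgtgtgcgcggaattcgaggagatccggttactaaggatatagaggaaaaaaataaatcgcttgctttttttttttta
INHBA: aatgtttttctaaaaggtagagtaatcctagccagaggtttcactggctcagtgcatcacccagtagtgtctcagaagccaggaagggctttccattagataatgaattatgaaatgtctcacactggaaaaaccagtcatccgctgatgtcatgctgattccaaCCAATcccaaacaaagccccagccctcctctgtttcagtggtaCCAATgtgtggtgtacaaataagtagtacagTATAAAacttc

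At the RefSeq starts used, the INHBA window was poor in CpG, and the other 3 windows shown lay above the median of all windows. Whether this holds at the GENCODE starts further upstream was not tested. The INHBA window held 1 CpG, an observed over expected ratio of 0.088, lower than in all but 9.29% of the 35116 promoter windows of this length. The ratio was 0.709 for ID1, 1.01 for ID3 and 0.909 for SMAD7, against a median of 0.558 over all windows. For SMAD7 it depended on the start site, with 0.622 at the second start and 0.138 at the third, where it was below the median. The second start had CAGAC at -193 and TATAAA at -35, and the third had neither but held an E-box, CANNTG, at -49. Among the windows shown, a CAGAC box stood at position -147 in ID3 and at -217 and -128 in SMAD7, counted back from the start site, and in neither ID1 nor INHBA. That box is in 38% of all windows. ID1 had TATAAA on both strands in overlapping letters at -33 and -31, and INHBA had it at -11, a motif present in 10.7% of windows. CCAAT stood at -84 in ID1 and at -85 and -42 in INHBA, and in 32% of all windows. The longer motifs were also searched on both strands: the BMP element GGCGCC (16.4% of windows), the palindrome GTCTAGAC (0.182%), the cAMP response element TGACGTCA (1.65%) and the AP-1 element TGANTCA (6.57%). These letters were not in the 4 windows shown, and sequence further upstream than the windows was not searched. An E-box, CANNTG, the site bound by the bHLH proteins that ID proteins hold back, was in the SMAD7 window at -184 and in 61.8% of all windows. A match is only a stretch of letters and is not evidence of binding.

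ID1 and ID3 encode helix-loop-helix proteins without a DNA-binding region, which tie up bHLH transcription factors and so delay differentiation. Levels are given in CPM, counts scaled to a common total over the listed genes. ID1 (ENSG00000125968, chr20:31605283-31606515, plus strand) was at 111, 109 and 127 CPM in control replicates 1, 2 and 3 and at 61.5, 70.2 and 68.8 in GABA replicates 1, 2 and 3. Every GABA library was below every control library, with control replicate 3 the highest. The mean went from 116 ± 9.43 to 66.8 ± 4.64 CPM (SD, n = 3), 0.578 of the control level, a log2 fold change of -0.79 ± 0.09 (SE).

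ID3 (ENSG00000117318, chr1:23557918-23559794, minus strand) was at 40.4, 39.0 and 36.4 CPM in the control libraries and at 20.8, 18.9 and 17.3 in the GABA libraries, each in replicate order. The groups did not overlap, and the gap between them was wider than the spread inside either. The mean went from 38.6 ± 2.05 to 19.0 ± 1.74 CPM (SD, n = 3), a ratio of 0.493 and a log2 fold change of -1.02 ± 0.12 (SE). Per kb of exon, ID1 was 4.01 to 5.07 times as abundant as ID3 in control libraries and 4.31 to 5.78 times in GABA libraries, ranges that overlap.

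SMAD7 (ENSG00000101665, chr18:48919853-48952052, minus strand), the inhibitory SMAD, was at 35.0, 41.3 and 33.4 CPM in control replicates 1, 2 and 3 and at 26.2, 24.2 and 24.9 in the GABA libraries. Control replicate 2 was the highest, and the lowest control library was still above all GABA libraries. The mean went from 36.6 ± 4.17 to 25.1 ± 1.04 CPM (SD, n = 3), a ratio of 0.686 and a log2 fold change of -0.54 ± 0.12 (SE). The change in SMAD7 was the smallest of the 4 in size.

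INHBA (ENSG00000122641, chr7:41667168-41705834, minus strand) encodes the beta A subunit, a pair of which makes activin A. It was at 33.6, 33.8 and 36.5 CPM in the control libraries and at 85.9, 90.2 and 91.5 in the GABA libraries. All GABA libraries were far above all control libraries, and the 3 libraries of each group lay close together. The mean went from 34.6 ± 1.61 to 89.2 ± 2.89 CPM (SD, n = 3), 2.57 times the control level, a log2 fold change of 1.36 ± 0.09 (SE).

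**Figure D1:**
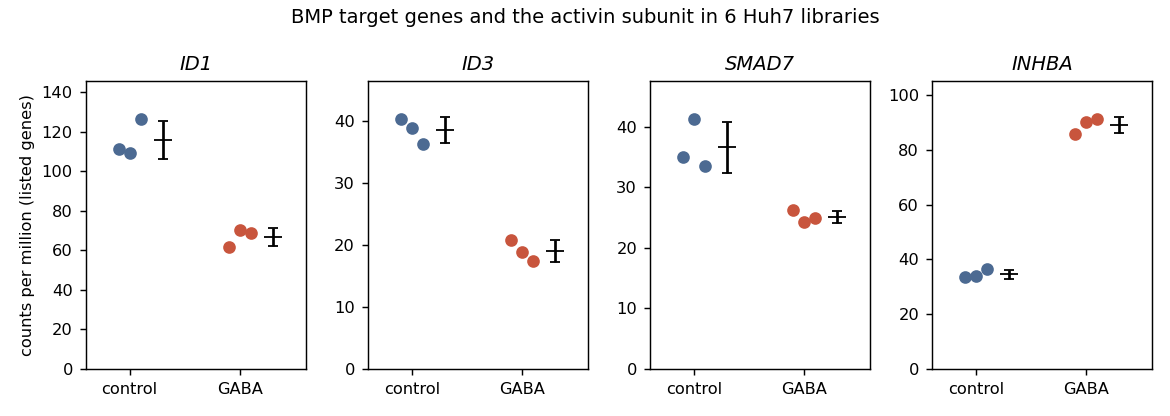
CPM on the listed genes (vertical axes, each from 0) of ID1, ID3, SMAD7 and INHBA in each control (blue) and GABA (red) library, replicates 1 to 3 from left to right, with the mean and SD (n = 3) in black. The GABA points of ID1, ID3 and SMAD7 sit below all control points, and those of INHBA sit above them.

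All 4 genes had groups that did not overlap, as did 92.5% of the 4981 tested genes. Nothing is read from that count, since the contrast chose both the genes and the files. Ordered by fold change among the tested genes, INHBA was the 122nd highest, and ID3, ID1 and SMAD7 were the 225th, 389th and 756th lowest. In the files' own order they stood at rows 21 (INHBA), 140 (ID1), 220 (ID3) and 1504 (SMAD7). No exon of the 4 genes overlaps an exon of another gene in GENCODE release 29, so their counts are not shared with a neighbour by position.

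The order of the 4 levels differed between the groups. Per kb of exon in control libraries, ID1 was at 93.9 ± 7.65 CPM, ID3 at 21.5 ± 1.14, SMAD7 at 7.27 ± 0.83 and INHBA at 4.17 ± 0.19 (SD, n = 3). In GABA libraries ID1 was at 54.2 ± 3.76, INHBA at 10.7 ± 0.35, ID3 at 10.6 ± 0.97 and SMAD7 at 4.98 ± 0.21 CPM per kb. INHBA thus stood last of the 4 in control and level with ID3 in GABA libraries, where these neighbours in the order did not differ beyond their spread. The ratio of INHBA to ID1 per kb was 0.0449, 0.0459 and 0.0428 in the control libraries and 0.207, 0.191 and 0.197 in the GABA libraries. The ratio of INHBA to ID3 was 0.180, 0.188 and 0.217 in control and 0.894, 1.03 and 1.14 in GABA libraries. On the log2 scale the first ratio differed by 2.16 and the second by 2.39 between the groups. The ratio of SMAD7 to ID1 ran from 0.0648 to 0.0926 in control and from 0.0844 to 0.104 in GABA libraries, and these ranges overlap.

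**Figure D2:**
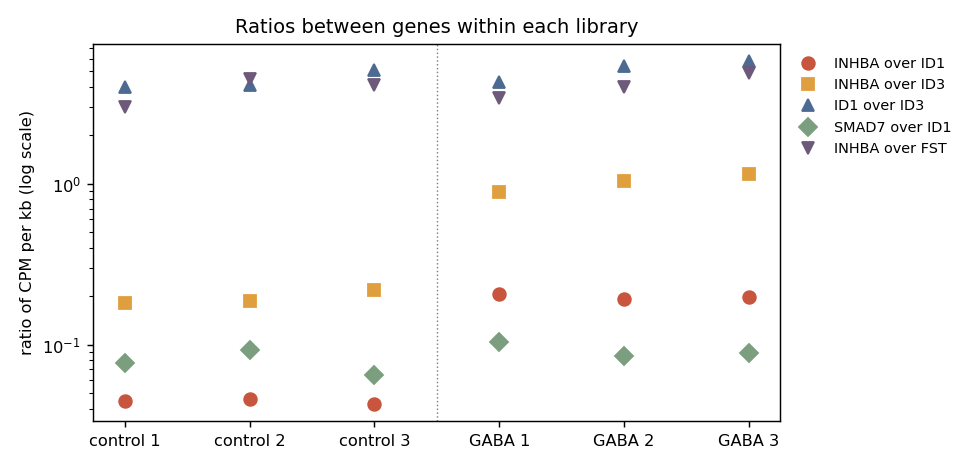
Ratios of CPM per kb of exon between pairs of genes (vertical log axis) in each of the 6 libraries (horizontal axis); the dotted line parts control from GABA. The ratios of INHBA to ID1 and to ID3 step up between the groups, while those of ID1 to ID3, SMAD7 to ID1 and INHBA to FST overlap.

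Other genes of the pathway were placed in 9 lists by role, holding 174 genes beside the 4. Of these, 51 were listed and tested with edgeR's quasi-likelihood test, with 17 higher, 31 lower and 3 not passing an adjusted p of 0.05 (Benjamini-Hochberg over all 4981 tested genes). Over all tested genes 98.7% passed, 47.6% higher and 51.2% lower, so passing says little here. These shares are the background for every count of higher and lower genes given below. The adjusted p-values take no account of the preselection of the files, so they and the calls serve only as a description. The median log2 fold change of the 51 was -0.24, beside -0.18 over all tested genes. The split differed between settings. With DESeq2 17 of the 51 were higher and 18 lower (2371 and 1953 over all genes), and with DESeq2 size factors in edgeR 17 and 23 (2373 and 2050 over all genes). Without GABA replicate 2 the counts were 14 and 19 (2081 and 1947 over all genes). The pathway genes described below kept their call in every alternative unless stated.

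Ligands moved both ways. BMP8B was the 1 of 14 BMP ligands listed, at 11.6 ± 1.46 and 8.04 ± 1.35 CPM (log2 fold change -0.52 ± 0.19, adjusted p = 0.020 with edgeR). Its call was lost with DESeq2 (-0.48) and without control replicate 1 (-0.41), GABA replicate 1 (-0.48) or GABA replicate 2 (-0.43). Of the other 5 listed genes among 19 activin and TGF-beta ligands, 3 rose and 2 fell. TGFB1 rose from 188, 186 and 184 CPM in the control libraries to 272, 282 and 269 (log2 fold change 0.56 ± 0.06, adjusted p = 3.1e-05). TGFB2 was the reverse, at 259, 234 and 293 CPM in control and 128, 140 and 154 in GABA libraries (-0.90 ± 0.09, adjusted p = 1.9e-05). Of the TGFB2 exon length 26.6% overlaps the transcript TGFB2-OT1. AMH, the anti-Müllerian hormone, fell from 33.1 ± 4.98 to 12.6 ± 1.45 CPM (SD, n = 3; -1.39 ± 0.15). GDF15, a stress-induced relative, and GDF11 rose by 0.33 and 0.36. INHBA had a log2 fold change above those of the 3 that rose, and the genes of the other activin and inhibin subunits (INHBB, INHBC, INHBE and INHA) were not among the listed genes.

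FST encodes follistatin, the secreted protein that binds activin and keeps it from its receptors. It was at 4.01, 2.72 and 3.18 CPM in the control libraries and at 8.99, 8.14 and 6.73 in the GABA libraries, with counts of 21 to 70. The groups did not overlap, and the log2 fold change was 1.26 ± 0.23 (SE, adjusted p = 8.1e-04 with edgeR). Per kb of exon, INHBA stood 3.00, 4.44 and 4.11 times above FST in the control libraries and 3.42, 3.96 and 4.86 times in the GABA libraries. These ranges overlap, with mean log2 ratios of 1.93 ± 0.30 and 2.01 ± 0.26 (SD, n = 3). The ratio is over RNA and says nothing of free activin.

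Of the 29 extracellular antagonists and processing genes 7 were listed. Of these, 3 were higher and 4 lower, beside 47.6% and 51.2% over all tested genes. KCP, a chordin-like protein that modulates BMPs, fell from 35.7 ± 6.85 to 13.1 ± 1.73 CPM (SD, n = 3; log2 fold change -1.45 ± 0.16, adjusted p = 3.2e-05). FSTL1, a follistatin-like glycoprotein, and TWSG1, which binds BMPs together with chordin, had -0.51 ± 0.06 and -0.49 ± 0.08. BMPER, an extracellular BMP regulator, rose by 0.43 ± 0.09 and CRIM1, a membrane protein that binds BMPs, by 0.30 ± 0.06. BMP1, a protease that cleaves chordin, had -0.37 ± 0.13, with overlapping groups, and lost its call without control replicate 2 (-0.25) or GABA replicate 2 (-0.33). The antagonists noggin and chordin (NOG and CHRD) were not among the listed genes.

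Of 21 receptors and co-receptors 6 were listed, of which 4 fell, 1 co-receptor rose and 1 did not pass. BMPR2, the type II BMP receptor, fell from 256 ± 12.0 to 202 ± 9.41 CPM (SD, n = 3; log2 fold change -0.34 ± 0.07, adjusted p = 0.0011). BMPR1B, a type I receptor, was scarce, with counts of 18, 11 and 19 in control and 4, 8 and 4 in GABA libraries (-1.57 ± 0.42, adjusted p = 0.0056). RGMB, a BMP co-receptor, rose from 286, 272 and 263 CPM to 431, 453 and 430 (0.68 ± 0.06), but 45.6% of its exon length overlaps RGMB-AS1 and another antisense gene, and whether counting used the strand is not given in the sources used here. ACVR2B, a type II receptor of activin, had overlapping groups and did not pass (-0.32 ± 0.15, adjusted p = 0.054). It passed with limma-voom (-0.34), with the replicate block (-0.33) and without control replicate 1 (-0.39) or GABA replicate 1 (-0.51), and had -0.16 without GABA replicate 2 and -0.26 without control replicate 3, where it did not pass. ACVR1, a type I BMP receptor, and NEO1, the receptor of the RGM proteins, had -0.22 and -0.23 and lost their calls in 7 of the 15 alternatives each. For ACVR1 these included leaving out control replicate 3 (-0.15) or GABA replicate 1 (-0.24), 2 (-0.25) or 3 (-0.18). For NEO1 they included leaving out control replicate 1 (-0.23) or 2 (-0.20), or GABA replicate 2 (-0.20) or 3 (-0.22).

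The signal-carrying SMADs that were listed had small negative values. SMAD4, the common partner, was at 109, 93.1 and 114 CPM in control and 88.8, 78.3 and 81.2 in GABA libraries (log2 fold change -0.35 ± 0.10, adjusted p = 0.0058). SMAD1 had -0.33 ± 0.12 (adjusted p = 0.022), and its call was lost with DESeq2 (-0.29) and without control replicate 3 (-0.25), GABA replicate 1 (-0.32) or GABA replicate 3 (-0.32). SMAD5 had -0.19 ± 0.06 (adjusted p = 0.014), lost with DESeq2 (-0.15) and without GABA replicate 1 (-0.18). SMAD2, SMAD3 and SMAD9 were not listed. Among 20 SMADs and nuclear partners 9 were listed, with 1 higher and 8 lower, beside a background of 51.2% lower. The median log2 fold change of the 9 was -0.26, beside -0.18 over all tested genes. TGIF1, a corepressor of SMAD2 and SMAD3, fell by 0.50 and SKIL, the corepressor SnoN, by 0.39 on the log2 scale. ZFYVE16, RUNX2 and TGIF2 had -0.26, -0.23 and -0.24, and EP300, a histone acetyltransferase, had 0.21. Each of these 4 calls was lost in 2 to 4 alternatives, all of them without GABA replicate 2 (-0.22, -0.21, -0.21 and 0.19). The others were lost without GABA replicate 1 for ZFYVE16 (-0.25), without control replicate 1 or GABA replicate 3 for TGIF2 (-0.21 and -0.22) and EP300 (0.19 each), and with DESeq2 for RUNX2 and TGIF2 (-0.19 each).

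Among 21 inhibitory SMADs, ubiquitin ligases and other regulators 10 were listed. Apart from SMAD7, 4 were higher and 5 lower, beside 47.6% and 51.2% over all tested genes. SMAD6, the inhibitory SMAD of the BMP branch, had counts of 21, 32 and 23 in control and 6, 12 and 14 in GABA libraries (log2 fold change -1.25 ± 0.35, adjusted p = 0.0067). No GABA library reached the lowest control library. Per kb of exon, SMAD6 was at 0.374 CPM in control and 0.155 in GABA libraries, well under the SMAD7 level in both. NEDD4L, a ubiquitin ligase that marks activated SMAD2 and SMAD3, rose from 738 ± 20.1 to 1083 ± 38.6 CPM (SD, n = 3; 0.55 ± 0.06, adjusted p = 2.3e-05). USP11, a deubiquitinase, rose by 0.39 and SMURF1, the ligase that SMAD7 brings to receptors, had 0.20, with its call lost without control replicate 1 (0.16). USP4, another deubiquitinase, had 0.21, lost without the same library (0.18). TOB1, TOB2, FKBP1A and PPM1A had -0.25, -0.24, -0.21 and -0.19. Their calls were lost with DESeq2 and with DESeq2 size factors in edgeR (-0.20, -0.19, -0.16 and -0.14 in both), and also without GABA replicate 2 (-0.22, -0.25, -0.21 and -0.16). TOB1 also lost its call without control replicate 1 (-0.26) or GABA replicate 1 (-0.20), and FKBP1A and PPM1A without GABA replicate 3 (-0.19 and -0.17). TOB2 lost it without any 1 library except control replicate 3 (-0.25 to -0.16), and FKBP1A moved to -0.12 without that library.

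**Figure D3:**
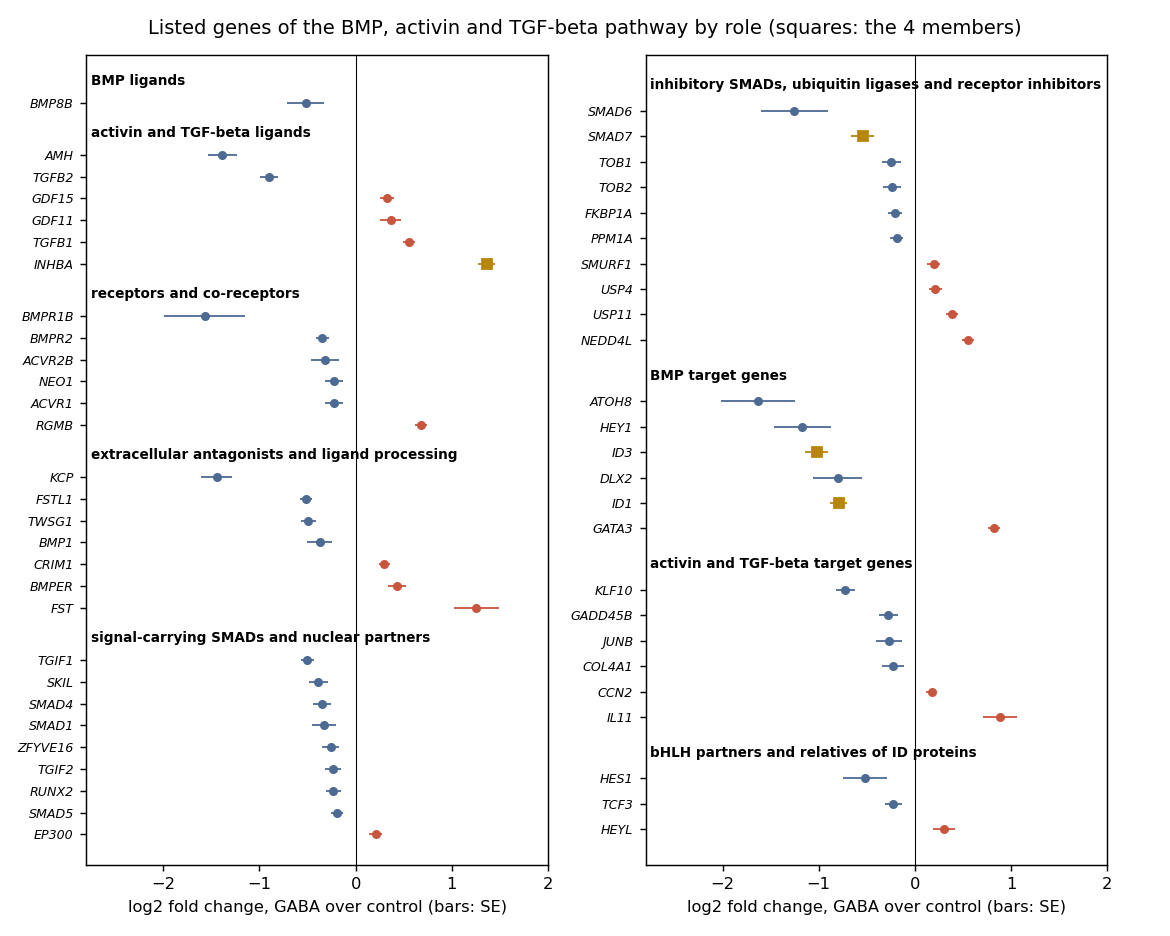
Log2 fold change of GABA over control with its SE (horizontal axes) for 54 of the 55 listed genes of the pathway, grouped by role, each gene in the first list that holds it; squares mark ID1, ID3, SMAD7 and INHBA, red points lie above 0 and blue points below. INHBA and FST lie far to the right, and the BMP targets other than GATA3 and BMPER lie to the left.

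Of 21 BMP target genes 9 were listed, among them ID1, ID3 and SMAD7, so 6 remain beside those that were chosen. SMAD6, ATOH8, HEY1 and DLX2 fell, and GATA3 and BMPER rose, beside 51.2% lower and 47.6% higher over all tested genes. ATOH8, a bHLH factor known as a BMP target in hepatocytes, had counts of 14, 19 and 17 in control and 7, 4 and 5 in GABA libraries (log2 fold change -1.63 ± 0.39, adjusted p = 0.0030). HEY1, a bHLH repressor also induced by Notch, had counts of 63, 59 and 76 in control and 14, 30 and 45 in GABA libraries (-1.17 ± 0.30, adjusted p = 0.0046). The 3 GABA libraries of HEY1 spread widely, yet all were below control. DLX2, a homeobox gene, had -0.80 ± 0.25 (adjusted p = 0.011), lost without control replicate 1 (-0.60). GATA3, a zinc finger factor that BMPs induce in several lineages, went the other way, from 150, 143 and 147 CPM to 264, 260 and 253 (0.82 ± 0.06, adjusted p = 2.5e-06). The group means of the 4 that fell were all under 10 CPM, and those of GATA3 and BMPER lay above that level. ID2, ID4 and HAMP, the hepcidin gene, were not among the listed genes.

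Of 30 activin and TGF-beta target genes 11 were listed, with 4 higher, 5 lower (SMAD7 among them) and 2 not passing. Over all tested genes 47.6% were higher and 51.2% lower. IL11, an interleukin induced by TGF-beta, rose from counts of 99, 100 and 87 to 185, 202 and 144 (log2 fold change 0.89 ± 0.17, adjusted p = 0.0011). FST, described above, is also a target, and CCN2, connective tissue growth factor, had 0.17 ± 0.06. The CCN2 call was lost without control replicate 2 (0.14), GABA replicate 1 (0.15) or GABA replicate 2 (0.17). KLF10, the TGF-beta-inducible early gene, was at 226, 223 and 292 CPM in control and 146, 153 and 149 in GABA libraries (-0.72 ± 0.10, adjusted p = 1.1e-04). TGIF1 and SKIL, which TGF-beta also induces, fell as given above, and GADD45B, a stress gene, had -0.27, lost without control replicate 2 (-0.16) or GABA replicate 3 (-0.22). JUNB (-0.27, adjusted p = 0.063) and COL4A1 (-0.23, adjusted p = 0.063) did not pass, and both passed without control replicate 3 (-0.38 and -0.36). Without control replicate 2, JUNB had -0.10 and did not pass.

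The bHLH genes, whose proteins the ID proteins bind or resemble in fold, were listed for 5 of 21. HEY1 and ATOH8 are described above. TCF3, the E protein that pairs with many bHLH factors, had -0.22 ± 0.09 at 184 and 158 CPM with overlapping groups, and lost its call in 7 of the 15 alternatives. Without control replicate 1 it had -0.15 and without control replicate 2 -0.20, and without GABA replicates 1, 2 and 3 it had -0.21, -0.21 and -0.25. HES1, a Notch target, had -0.52 ± 0.23, also with overlap. Its call was lost in 6 alternatives, among them those without control replicate 2 (-0.33), GABA replicate 1 (-0.33) and GABA replicate 3 (-0.52). HEYL had 0.30 ± 0.11, lost without control replicate 1 (0.30) or 3 (0.22) and without GABA replicate 2 (0.28) or 3 (0.27). TCF4 and TCF12, the other E proteins, were not listed.

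**Figure D4:**
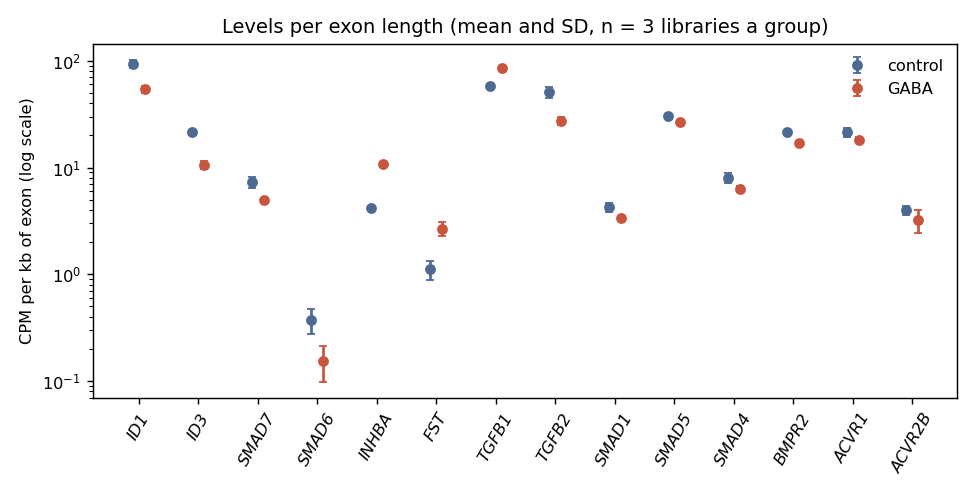
CPM per kb of exon (vertical log axis; mean and SD, n = 3 libraries a group) in control (blue) and GABA (red) libraries for the 4 genes and 10 genes of the pathway. ID1 is the highest of the 4 in both groups, and INHBA and FST are the lower-level genes whose GABA points lie above control.

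Few genes near the 4 loci were listed. Within 500 kb of ID1 the files hold 1 gene, TPX2, a spindle assembly factor, which went from 313 ± 37.6 to 497 ± 28.7 CPM (SD, n = 3; log2 fold change 0.67 ± 0.08, adjusted p = 7.6e-05), opposite to ID1. Within that distance of ID3 there were 5, with 3 higher, FUCA1 and HNRNPR among them, and 2 lower (ASAP3 and HTR1D). ASAP3 had -0.72 ± 0.18 and FUCA1 0.42 ± 0.11. The call of HTR1D (-0.38) was lost without GABA replicate 3 (-0.32). HNRNPR had 0.27, or 0.17 without control replicate 3. DYM near SMAD7 had -0.27 ± 0.09, with its call lost without GABA replicate 1 (-0.22) or 3 (-0.24). GLI3 near INHBA, a transcription factor of Hedgehog signalling, had -0.39 ± 0.13, opposite to INHBA.

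The 3 genes with the profile closest to each of the 4 over the 6 libraries were sought among the other 4304 genes whose mean reached 10 CPM, by the root mean square difference of centred log2(CPM + 1) values. For ID1 they were AL390728.6, NT5C2 and CYBRD1, an iron reductase, at differences of 0.04 log2 units each. For ID3 they were IL31RA (0.05), FZD3 (0.05) and SH3BP2 (0.07). For SMAD7 they were TNFRSF10B, a death receptor of TRAIL (0.03), AC087741.1 (0.03) and the nuclear RNA NEAT1 (0.04). INHBA had more distant ones, LINC00472 (0.07), AC011815.1 (0.08) and PPP1R3F (0.09). NT5C2 went from 173 ± 16.1 to 103 ± 7.29 CPM, IL31RA from 131 ± 3.56 to 67.7 ± 3.96, TNFRSF10B from 1117 ± 95.1 to 776 ± 19.8 and LINC00472 from 27.5 ± 2.00 to 71.2 ± 1.84 (SD, n = 3). None of these 12 genes is in the pathway lists. Centring over all 6 libraries keeps the group difference, so a close profile here mostly means a similar fold change. It is not evidence of shared regulation.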

How the data were processed

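The data are RNA sequencing libraries of Huh7 cells, 3 control and 3 treated with GABA. The deposited values are whole-number read counts per gene, 1 file a library. The build was hg38 and the tools Bowtie 0.12.2 and CASAVA 1.8, per the submitters' processing notes; the counting program and its strand setting are not given in the sources used here. All 5187 identifiers were found in GENCODE release 29 (same build), which gave exon lengths.

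Counts were filtered with filterByExpr (minimum count 10, minimum total 15; 206 genes removed), scaled by TMM and tested with edgeR 4.0.16 in R 4.3.3 (robust quasi-likelihood F test, Benjamini-Hochberg over 4981 genes, threshold 0.05). The SE is the fold change over the root of F. CPM are relative to the listed genes. The alternatives were 3 other scalings, TMM without mitochondrially encoded genes, 2 other filters, DESeq2 1.42.0, limma-voom (limma 3.58.1), the replicate block and each library left out. The code was tested on simulated data.

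The 4 genes and the lists were chosen with earlier results of these data known. The text names the 4 genes, genes of the 9 role lists, listed genes within 500 kb and the 3 closest profiles for each; the 500 kb window and the promoter motifs were chosen after values were seen. Promoters came from RefSeq, where all 4 genes matched. Some values are not reported here.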

Additional observations from a re-analysis of the deposited data

How the results depend on the processing

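The 4 genes kept their direction in all 15 alternatives and moved by less than 1 within-group SD in each, with log2 fold changes from -0.83 to -0.72 for ID1, -1.09 to -0.96 for ID3, -0.60 to -0.45 for SMAD7 and 1.34 to 1.41 for INHBA. The count of lower pathway genes beside the 4, 31, was 18 with DESeq2 and 19 to 31 with a library left out (19 without GABA replicate 2); the cause was not tested. The higher count, 17, ran from 13 to 16 with a library left out and was 17 in the other alternatives. Of the 51 pathway genes, 26 had the same call in every alternative (12 higher, 14 lower) and 25 had another call in at least 1; no gene of the pathway, neighbour, profile or marker lists reversed. Over all genes 4324 passed with DESeq2 and 5131 with no filter; leaving out 1 library gave 4025 to 4735. With the replicate block 4823 genes passed, 47 of them in the pathway (17 higher, 30 lower); the block ended the calls of ACVR1 (-0.22) and NEO1 (-0.23) and ACVR2B passed (-0.33). Same-numbered libraries shared no deviation (correlations 0.00075, -0.093 and -0.037), so the numbers are not treated as pairs. The scalings moved the median of all genes by at most 0.04. Low counts limit ATOH8, BMPR1B, SMAD6 and FOXA1, and to a lesser degree FST and HEY1.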
